A study of Mus musculus with 15 samples.

Results

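The genes described here encode the machinery that copies nuclear DNA: the proteins that mark and license replication origins, the helicase and the factors that switch it on, the polymerases, clamp and single-strand binding proteins of the fork, the enzymes that finish Okazaki fragments and supply nucleotides, and the factors that protect the fork and repackage new DNA. They were chosen by name from the known members of the pathway, with earlier results of these data known. All 59 genes on the list were found among the 55416 identifiers of the table, and all 59 passed the filter on low counts that left 18244 genes for testing. They were read by RNA sequencing in neural precursor cells, the dividing cells that give rise to neurons and glia, grown from the hippocampus of female mice aged 6 weeks. Each of 3 stable lines carried a piggyBac insertion with a puromycin resistance gene and the TetON-3G transactivator behind an SV40 promoter. The cassette of the Atf3 line and the Atf4 line also held the coding sequence of that transcription factor behind the doxycycline-inducible TRE3G promoter, and in the control line it held neither. All cultures, controls included, lost EGF and FGF from the medium and received doxycycline at 100 ng/ml at the same moment, and all were harvested 10 h later, with 5 libraries per line. Each construct is represented by 1 line, so a difference between lines cannot be told apart from a difference between the 3 selected cell populations. Whether the 5 libraries of a line are separate cultures is not stated, and all p-values here rest on the spread between those libraries, which may be technical.

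A chromosome is copied once per cell cycle because origins are licensed in G1 phase and fired only in S phase. The origin recognition complex (ORC), with Cdc6 and Cdt1, loads the ring-shaped MCM2-7 helicase, and geminin blocks Cdt1 once S phase has begun. The kinase Cdc7 with Dbf4, together with Cdc45 and GINS, then turns the ring into an active helicase, behind which polymerases alpha, delta and epsilon build new strands. Many of these genes are known targets of E2F transcription factors and rise when quiescent cells enter the cycle. In neural precursors, loss of EGF and FGF is a common way to start differentiation and exit from the cycle. Atf3 and Atf4 are basic leucine zipper proteins induced by cellular stress, Atf4 mainly through the integrated stress response.

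Libraries held 53.7 to 69.6 M counts in total. As a check of the labels, Atf3 was read at 1772 to 2107 counts per 1000000 counts (CPM) in the Atf3 line, at 1.14 to 1.90 CPM in the Atf4 line and at 1.67 to 11.0 CPM in the control line, where replicates 4 and 5 stood above the others at 11.0 and 7.55 CPM. Atf4 was read at 128 to 188 CPM in the Atf4 line against 76.3 to 92.7 CPM in controls, and it was higher still in the Atf3 line, at 227 to 267 CPM. Over all tested genes, 36.8% rose and 36.3% fell in the Atf3 line and 31.9% rose and 29.7% fell in the Atf4 line, the background for the marker counts that follow. Of 10 neural precursor markers, 4 rose and 2 fell in the Atf3 line and 6 rose and 2 fell in the Atf4 line, with a summed level of 3680 to 3992 CPM in controls, 4665 to 4840 CPM in the Atf3 line and 4332 to 4553 CPM in the Atf4 line. Neuronal markers summed to 1643 to 1824, 1337 to 1563 and 1360 to 1515 CPM in the same order. Of the 5 of 6 that were tested, 3 fell in each line and 1 rose in the Atf4 line, and Stmn2 stayed at or below 0.0421 CPM in every library. Of 7 oligodendrocyte lineage markers 7 fell with Atf3 and 6 with Atf4, with sums of 3847 to 4419, 2922 to 3734 and 3476 to 4049 CPM. Of 4 tested astrocyte markers, of 5 listed, 3 and 4 fell, and the sum of the 5 dropped from 223 to 261 CPM in controls to 102 to 114 CPM and 97.1 to 134 CPM. Microglial markers summed to at most 1.58 CPM and mural or fibroblast markers to at most 0.964 CPM in any library, with Cx3cr1, Aif1 and Pdgfrb at or near 0. Endothelial markers summed to 44.9 to 49.1, 12.4 to 18.5 and 18.4 to 21.5 CPM, with Cldn5 at or near 0. In controls nearly all of the sum was Kdr. Of the 3 of 5 that were tested, 1 rose and 2 fell in the Atf3 line, and 1 rose and 1 fell in the Atf4 line. Ependymal markers summed to 23.5 to 27.9, 31.7 to 41.7 and 30.9 to 40.3 CPM. Of the 3 of 5 that were tested, 2 rose and 1 fell in the Atf3 line, and 1 rose and 1 fell in the Atf4 line. Mitochondrially encoded genes took 4.00 to 4.16% of counts in controls, 3.23 to 3.95% in the Atf3 line and 3.28 to 3.57% in the Atf4 line. The part of these shifts in the results below was not tested.

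Nearly the whole replication machinery was higher in both induced lines. In the Atf3 line 58 of the 59 genes rose against the control line and 0 fell, where 36.8% of all tested genes rose and 36.3% fell (edgeR quasi-likelihood test, Benjamini-Hochberg adjusted p under 0.05). In the Atf4 line 57 rose and 0 fell, where 31.9% of all tested genes rose and 29.7% fell. Orc3 was not called in either line and Orc4 was not called in the Atf4 line. Without TMM scaling, on plain library totals, Orc3 fell in the Atf3 line and the counts of rising genes were 57 and 56. The median change of the 59 genes was 1.44 on the log2 scale with Atf3 and 1.42 with Atf4, where the medians over all tested genes were -0.017 and -0.00085. A rise of at least 2-fold was called for 45 of the genes in the Atf3 line, where 7.12% of all tested genes rose that far, and for 45 in the Atf4 line, where 4.19% did. Every library of the Atf3 line lay above every control library for 58 of the genes, a pattern found for 32.0% of all tested genes, and in the Atf4 line this held for 57, beside 26.1%. Among the 500 largest rises of the transcriptome were 26 of the replication genes (44.1% of the 59) with Atf3 and 39 (66.1%) with Atf4. Those 500 are 2.74% of all tested genes. Both comparisons used the same 5 control libraries. Because the list was chosen with earlier results of these data known, its excess over all tested genes is a description and not independent support. In bulk RNA, a larger share of cells in S phase and more of each transcript per cell cannot be told apart.

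**Figure D1:**
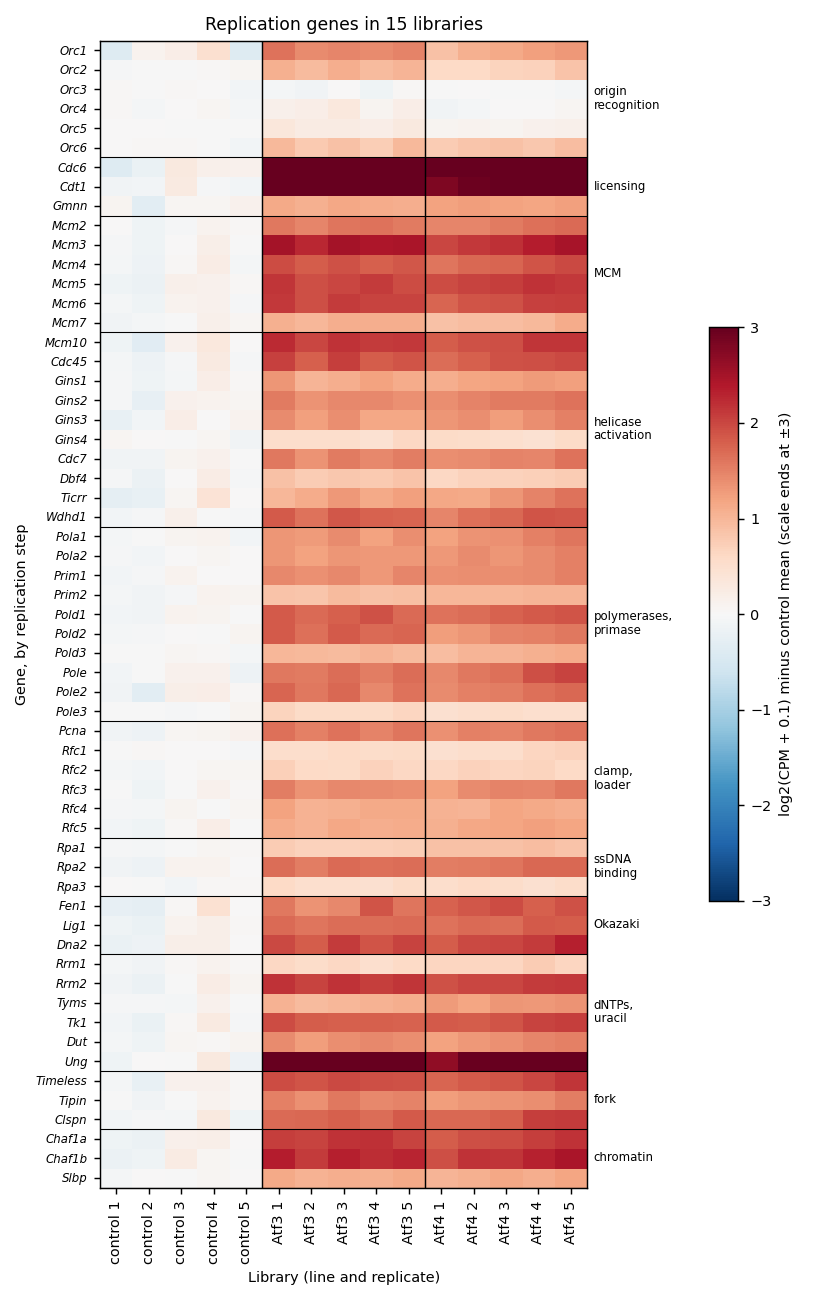
Heat map of the 59 replication genes (rows, grouped by step) in 15 libraries (columns): colour is log2(CPM + 0.1) minus the mean of the 5 control libraries, ending at ±3. The 5 Atf3 and 5 Atf4 columns are red in nearly every row, with Orc3, Orc4 and Orc5 close to white and Cdc6, Cdt1 and Ung darkest.

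The control libraries differed little among themselves. The median of the 59 genes, taken for each library against the control mean, ran from -0.107 to 0.106 in controls, from 1.36 to 1.52 in the Atf3 line and from 1.30 to 1.58 in the Atf4 line. Per gene, the coefficient of variation over the 5 libraries of a line had a median of 7.48% in controls, 4.88% with Atf3 and 6.54% with Atf4. Within a line the extremes often fell in the same library: 37 of the 59 genes had their highest control value in replicate 4 and 33 had their lowest in replicate 2. In the Atf3 line 34 genes were lowest in replicate 2 and 27 were highest in replicate 1. In the Atf4 line 43 genes were lowest in replicate 1 and 43 were highest in replicate 5. These replicates also differed most of all pairs within a line over the whole transcriptome (chi-square 53.4 per degree of freedom). The same counts were not made over all tested genes, so the pattern is not shown to be particular to the replication genes.

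The regulatory sequence in front of these genes was read from RefSeq promoter windows (GRCm38.p6), which hold 250 bases before and 50 after an annotated start and were found for 50 of the 59 genes. Of these, 16 (32.0%) held an E2F motif, searched on both strands as TTTCGCGC, TTTGGCGC, TTTCCCGC or TTTGCCGC, beside 2.61% of the 27025 genes in the promoter table and 4.36% of the 11846 tested genes in it. The 16 genes had a median log2 change of 1.65 with Atf3 and 1.65 with Atf4, and the other 34 had 1.397 and 1.41. The cAMP response element TGACGTCA, the sequence that Atf proteins are known to bind, was in 2 windows (4.0%, beside 2.03% of all genes and 3.47% of tested ones), those of Mcm5 and Orc5, and its shorter core TGACG, which lies within it, in 20 (40.0%, beside 23.0% and 33.6%). The AP-1 motif TGANTCA was in 1 window (2.0%, beside 8.97% and 6.19%), that of Pold3. A composite C/EBP-ATF motif, TGATGCAA or TGATGNAAT, was in 1 (2.0%, beside 1.89% and 1.09%), that of Orc2, and the CCAAT box CCAAT was in 27 (54%, beside 41.1% and 42.9%). A match is only a run of letters, and binding was not measured. The stretches before the start site are shown for the gene with the most E2F matches (Mcm6), for the gene with both an E2F and a cAMP response element match (Mcm5), for the gene with the largest change (Cdc6) and for a gene with a large change and neither motif (Ung). They run 5′ to 3′ on the gene's strand, stop short of any exon annotated by GENCODE M21, and have the E2F and cAMP response element matches in capitals. For Mcm6 and Mcm5 the direction is that of the RefSeq window and could not be checked against a transcript.
Mcm6, chr1:128359706-128359955, minus strand: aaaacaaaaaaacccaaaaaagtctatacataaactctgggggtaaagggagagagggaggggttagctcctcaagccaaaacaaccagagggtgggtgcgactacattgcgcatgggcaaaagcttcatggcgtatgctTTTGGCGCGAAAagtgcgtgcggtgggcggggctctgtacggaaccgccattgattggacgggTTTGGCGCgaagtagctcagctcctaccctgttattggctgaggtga
Mcm5, chr8:75109259-75109508, plus strand: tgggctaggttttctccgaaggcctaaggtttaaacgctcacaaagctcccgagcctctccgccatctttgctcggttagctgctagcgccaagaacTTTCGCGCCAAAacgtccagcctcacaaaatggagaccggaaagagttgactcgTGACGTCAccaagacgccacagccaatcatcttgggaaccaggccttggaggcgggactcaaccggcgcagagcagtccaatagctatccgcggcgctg
Cdc6, chr11:98907982-98908150, plus strand: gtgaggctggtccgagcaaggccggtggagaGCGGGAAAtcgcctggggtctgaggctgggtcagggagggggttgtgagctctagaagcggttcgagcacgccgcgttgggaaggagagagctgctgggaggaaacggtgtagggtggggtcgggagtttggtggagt
Ung, chr5:114130185-114130385, plus strand: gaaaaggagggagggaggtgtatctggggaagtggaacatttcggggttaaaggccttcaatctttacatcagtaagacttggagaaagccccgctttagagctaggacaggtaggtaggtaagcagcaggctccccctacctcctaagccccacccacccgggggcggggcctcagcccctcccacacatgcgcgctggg
In Mcm6 the 3 E2F matches began 110, 106 and 47 bases before the start, the first pair overlapping on opposite strands. In Mcm5 an overlapping pair began 153 and 149 bases before the start, and the cAMP response element began 99 bases before it. Cdc6 held 1 match, 138 bases before the RefSeq start and inside an intron of a longer GENCODE transcript of Cdc6. The Mcm6 and Mcm5 stretches lie outside every gene of that annotation, as does the printed part of the Ung window. Orc3, which was not called, also held an E2F match.

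**Figure D2:**
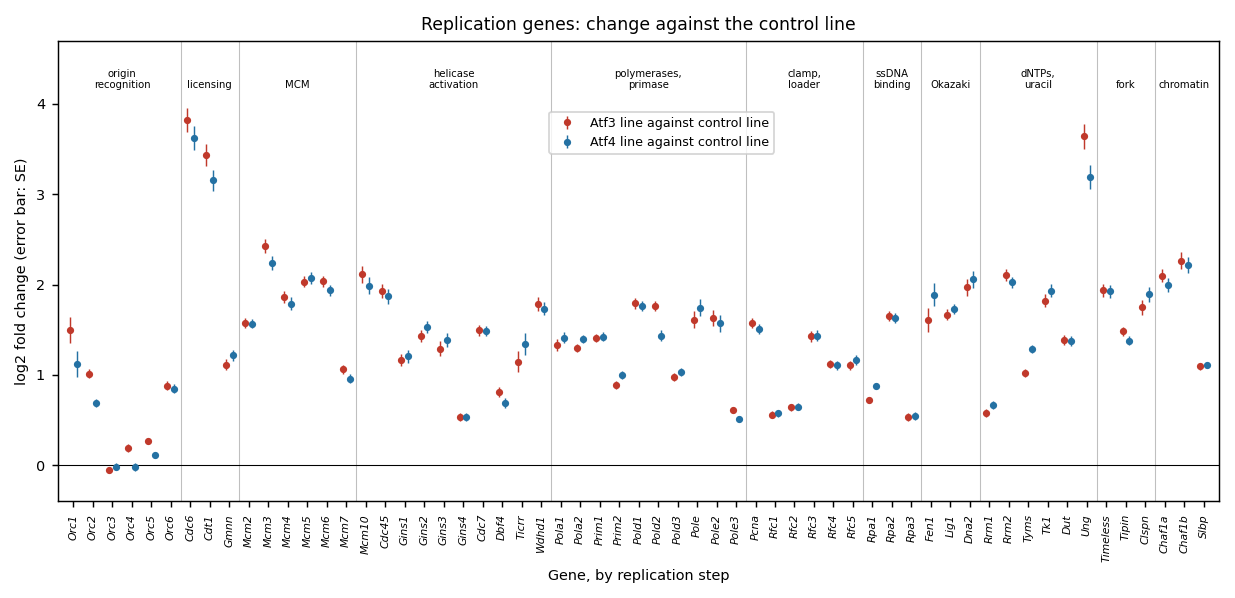
Log2 fold change of each of the 59 genes against the control line in the Atf3 line (red) and the Atf4 line (blue), from edgeR, with bars of ± 1 SE, grouped by replication step. The changes ran from -0.051 (Orc3) to 3.82 (Cdc6) in the Atf3 line and from -0.019 (Orc4) to 3.62 (Cdc6) in the Atf4 line.

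Origin recognition changed least of all steps. The 6 ORC genes had a median log2 change of 0.57 with Atf3 and 0.40 with Atf4, and within the complex the response was uneven. Orc1, the subunit whose level is known to cycle, was read at 1.32, 1.88, 2.02, 2.48 and 1.31 CPM in control replicates 1 to 5. It stood at 5.62, 4.82, 5.03, 4.82 and 5.12 CPM in Atf3 libraries and at 3.27, 3.75, 3.96, 4.24 and 4.44 CPM in Atf4 libraries. No library of either induced line overlapped the controls, in which Orc1 also had the widest relative spread of all 59 genes (a coefficient of variation of 27.7%). Its log2 change was 1.497 ± 0.14 (SE; edgeR adjusted p = 1.8e-08) in the Atf3 line and 1.12 ± 0.14 (adjusted p = 1.7e-06) in the Atf4 line. Orc3, a core subunit (GRCm38 chr4:34570796-34614944, minus strand), was not called in either line. Its levels were 54.9, 53.3, 55.6, 54.5 and 50.8 CPM in controls, 51.9, 49.6, 53.995, 49.1 and 55.1 CPM in Atf3 libraries and 53.1, 54.5, 53.6, 53.6 and 51.6 CPM in Atf4 libraries, so that the 3 lines overlapped. Its log2 change was -0.051 ± 0.038 in the Atf3 line (edgeR adjusted p = 0.231) and -0.015 ± 0.038 in the Atf4 line (adjusted p = 0.749). With a filter at 1 CPM in 5 libraries the Atf3 value was -0.11 (adjusted p = 0.011), and on plain library totals it was -0.19 (adjusted p = 2.2e-04). Orc4, another core subunit, was at 41.6, 38.8, 40.5, 42.1 and 39.1 CPM in controls, 45.2, 46.7, 50.005, 42.9 and 46.5 CPM in Atf3 libraries and 37.4, 38.7, 40.7, 40.6 and 42.1 CPM in Atf4 libraries. It rose by 0.20 ± 0.044 in the Atf3 line (edgeR adjusted p = 5.9e-04), a call lost on plain library totals (0.057, adjusted p = 0.256), and its change in the Atf4 line was -0.019 ± 0.044 (adjusted p = 0.729). Orc5 rose by 0.27 ± 0.033 and 0.11 ± 0.033, Orc6 by 0.88 ± 0.049 and 0.85 ± 0.049, and Orc2 by 1.01 ± 0.048 and 0.69 ± 0.048 in the Atf3 and Atf4 lines. In the Atf4 line the Orc5 call was lost on plain library totals (adjusted p = 0.0542) and without control replicates 4 and 5 (adjusted p = 0.0609).

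Licensing factors changed most. Cdc6, the ATPase that joins ORC to load the helicase (GRCm38 chr11:98907801-98923940, plus strand), was nearly silent in controls, at 1.19, 1.36, 1.97, 1.78 and 1.74 CPM. It was at 24.7, 22.2, 23.6, 20.5 and 23.2 CPM in Atf3 libraries and in Atf4 libraries at 14.951, 19.2, 19.2, 21.3 and 24.6 CPM. The lowest induced library was thus far above the highest control. The log2 change was 3.82 ± 0.13 in the Atf3 line, 14.2-fold (edgeR adjusted p = 5.3e-14), and 3.62 ± 0.13 in the Atf4 line, 12.3-fold (adjusted p = 2.4e-13). Cdt1, which brings the MCM ring to the origin, went from 2.86 ± 0.342 CPM (SD, n = 5) in controls to 30.9 ± 2.62 CPM in Atf3 libraries and 25.5 ± 4.65 CPM in Atf4 libraries, log2 changes of 3.43 ± 0.12 and 3.16 ± 0.12. Gmnn encodes geminin, the inhibitor of Cdt1. It was at 10.7, 8.15, 10.5, 10.6 and 11.2 CPM in controls, 22.5, 21.4, 22.7, 22.1 and 21.9 CPM in Atf3 libraries and 23.7, 24.5, 23.6, 23.3 and 23.9 CPM in Atf4 libraries. Its rise of 1.11 ± 0.062 (edgeR adjusted p = 1.2e-11) and 1.22 ± 0.061 (adjusted p = 1.0e-11) on the log2 scale was smaller than that of its target. Per kilobase of exon, the ratio of Cdt1 to Gmnn was 0.132 ± 0.0207 (SD, n = 5) in controls, 0.650 ± 0.0428 with Atf3 and 0.499 ± 0.0923 with Atf4, with no overlap between the induced lines and the controls. The size of this ratio rests on all annotated exons, used or not.

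All 6 subunits of the MCM2-7 helicase rose in both lines, with median log2 changes of 1.95 with Atf3 and 1.86 with Atf4. Mcm3 rose most. Its control libraries were at 27.3, 25.7, 28.4, 31.9 and 28.0 CPM, those of the Atf3 line at 158, 135, 161, 152 and 154 CPM and those of the Atf4 line at 114, 124, 129, 144 and 158 CPM. All 10 induced libraries were above all 5 controls, with log2 changes of 2.43 ± 0.079 (edgeR adjusted p = 4.1e-14) and 2.24 ± 0.078 (adjusted p = 1.5e-13). Mcm7 rose least. It was at 68.6, 71.4, 73.7, 82.0 and 76.9 CPM in controls and reached 156, 149.6, 158, 158 and 158 CPM in Atf3 libraries and 136, 140.3, 141, 147 and 162 CPM in Atf4 libraries. Its log2 changes were 1.06 ± 0.049 (edgeR adjusted p = 1.1e-12) and 0.96 ± 0.049 (adjusted p = 1.2e-11). The other 4 changed by 1.57 (Mcm2) to 2.04 (Mcm6) in the Atf3 line and by 1.57 (Mcm2) to 2.07 (Mcm5) in the Atf4 line.

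The ring holds 1 copy of each subunit, so the transcripts can be compared per exon length. In controls they were uneven: Mcm7 was at 16.8 ± 1.17 CPM per kilobase (SD, n = 5) and made up 29.1% ± 0.960 of the 6 subunits' summed level, while Mcm5 was at 6.46 ± 0.644 CPM per kilobase and 11.2% ± 0.538. The share of Mcm7 was 17.5% ± 0.494 with Atf3 and 17.3% ± 0.612 with Atf4. The share of Mcm3 moved the other way, from 13.0% ± 0.233 in controls to 20.1% ± 0.570 and 18.7% ± 0.780. Mcm6 was then the most abundant subunit per length, at 44.3 ± 2.13 CPM per kilobase with Atf3 and 41.3 ± 3.74 with Atf4. A like pattern of the least changed subunit being high in controls was seen for GINS, where Gins4 went from 67.3% ± 2.28 of the 4 subunits' summed level to 54.9% ± 2.06 and 53.7% ± 1.83. In ORC, the share of Orc3 was 23.6% ± 0.525 in controls, 15.1% ± 0.377 with Atf3 and 17.4% ± 0.931 with Atf4. In the trimeric RPA, Rpa2 went from 13.6% ± 0.854 to 24.0% ± 0.756 and 22.4% ± 1.06. The pattern of GINS also held for Rfc1 in the clamp loader (34.2% in controls). It held too for Prim2 in polymerase alpha with primase (32.0%). ORC and RPA did not show the pattern. Their highest subunits in controls, Orc2 (26.2%) and Rpa1 (51.0%), were not those that changed least. A shift in share follows from the control levels and the changes given for each gene and is not a separate result. These levels and shares rest on all exons annotated for a gene, used or not.

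**Figure D3:**
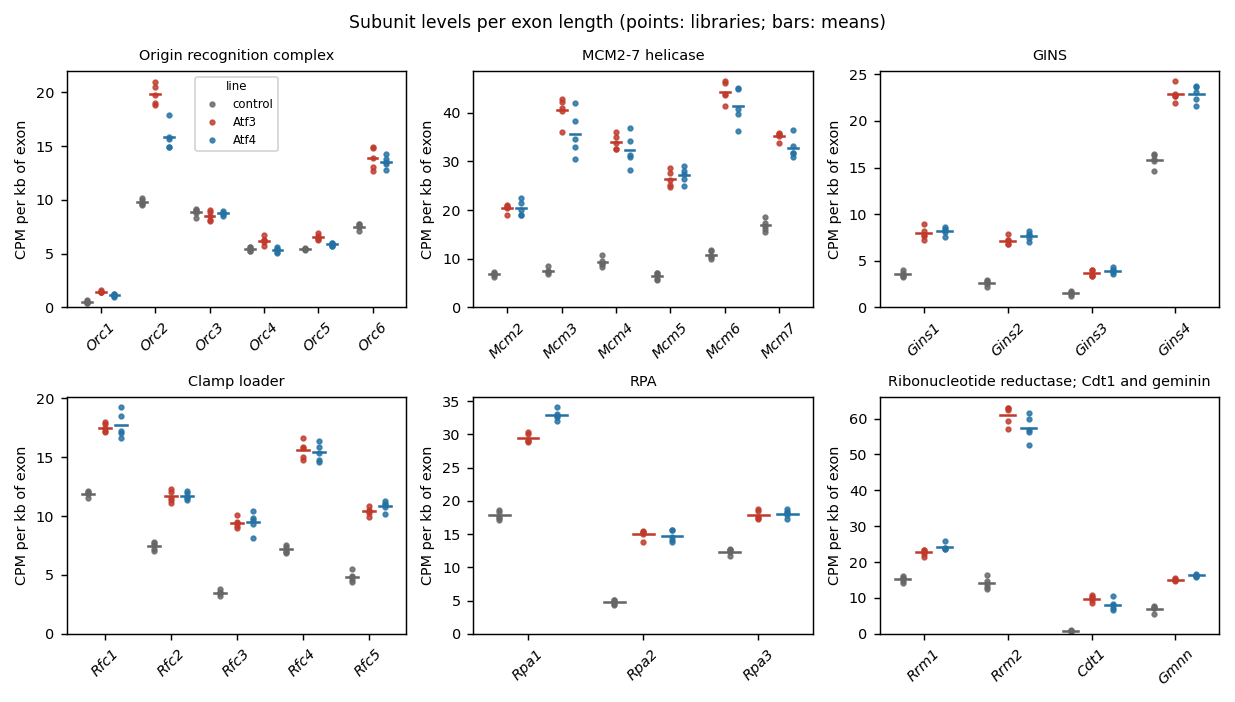
Levels in CPM per kilobase of exon (vertical axes, each from 0) for subunits of 4 complexes, RPA, and the pairs Rrm1 with Rrm2 and Cdt1 with Gmnn; points are libraries of the control (grey), Atf3 (red) and Atf4 (blue) lines and bars are means. Mcm7 and Gins4 stand above their partners in the control line, and Orc3 is level across the 3 lines.

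All 10 genes for turning on the helicase rose in each line, with medians of 1.36 with Atf3 and 1.44 with Atf4. Mcm10, which helps to activate the loaded ring, changed most in the Atf3 line. It was at 8.11, 7.07, 9.76, 11.2 and 9.06 CPM in controls, 42.3, 36.0, 40.8, 38.4 and 39.1 CPM in Atf3 libraries and 31.9, 33.7, 34.4, 39.9 and 40.0 CPM in Atf4 libraries, with log2 changes of 2.12 ± 0.096 (edgeR adjusted p = 9.4e-13) and 1.99 ± 0.096 (adjusted p = 6.0e-12). Gins4, a GINS subunit, changed least. Its levels were 22.1, 21.5, 21.2, 22.2 and 19.7 CPM in controls, 30.9, 30.6, 30.6, 29.5 and 32.7 CPM in Atf3 libraries and 32.0, 31.2, 30.1, 29.1 and 31.9 CPM in Atf4 libraries, still without overlap with the controls, for log2 changes of 0.53 ± 0.043 (edgeR adjusted p = 1.9e-09) and 0.53 ± 0.043 (adjusted p = 4.5e-09). Cdc45, the partner of GINS in the active helicase, rose by 1.93 ± 0.081 and 1.87 ± 0.081. The kinase subunit Cdc7 rose by 1.49 ± 0.059 and 1.48 ± 0.058, and its activator Dbf4 by 0.81 ± 0.055 and 0.69 ± 0.055. Ticrr, which brings Cdc45 to origins, rose by 1.15 ± 0.12 and 1.34 ± 0.12, and Wdhd1, which ties polymerase alpha to the helicase, by 1.78 ± 0.075 and 1.73 ± 0.075. Gins1 and Gins3 rose by 1.16 and 1.29 in the Atf3 line and by 1.21 and 1.39 in the Atf4 line. Gins2 rose by 1.44 and 1.53, but 67.3% of its annotated exon bases lie under another gene, Gse1, so its count is uncertain.

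Polymerase and primase genes, 10 in number, rose in both lines, with medians of 1.37 and 1.42. Pold1, the catalytic subunit of polymerase delta, changed most. Control libraries were at 22.3, 21.9, 25.5, 25.1 and 23.5 CPM, Atf3 libraries at 84.8, 77.5, 82.0, 89.2 and 76.7 CPM and Atf4 libraries at 72.9, 75.5, 81.1, 84.1 and 88.0 CPM, for log2 changes of 1.79 ± 0.059 (edgeR adjusted p = 4.4e-14) and 1.76 ± 0.059 (adjusted p = 1.2e-13). Pole3, a small histone-fold subunit of polymerase epsilon that is also part of a chromatin remodeller, changed least. It was at 41.7, 41.4, 40.8, 41.7 and 44.6 CPM in controls, 67.2, 62.4, 62.5, 62.9 and 65.5 CPM in Atf3 libraries and 58.3, 60.1, 61.7, 59.3 and 59.7 CPM in Atf4 libraries, for log2 changes of 0.61 ± 0.034 (edgeR adjusted p = 1.3e-11) and 0.51 ± 0.034 (adjusted p = 3.8e-10). The catalytic subunit Pole rose by 1.61 ± 0.092 and 1.74 ± 0.092 and its partner Pole2 by 1.63 ± 0.092 and 1.57 ± 0.092. Within polymerase delta, Pold2 rose by 1.76 ± 0.059 and 1.44 ± 0.058, and Pold3 by 0.98 ± 0.040 and 1.03 ± 0.040. Polymerase alpha starts each new strand from an RNA primer. Its subunits Pola1 and Pola2 rose by 1.33 and 1.30 in the Atf3 line and by 1.41 and 1.398 in the Atf4 line. The primase pair was uneven: Prim1, the catalytic subunit, rose by 1.41 ± 0.047 and 1.42 ± 0.047, and Prim2 by 0.89 ± 0.043 and 1.00 ± 0.043.

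Pcna, the sliding clamp that holds polymerases on DNA, was the gene with the largest change of the clamp step. It went from 89.0, 86.3, 100.0, 101 and 105 CPM in controls to 301, 276, 297, 268 and 290.3 CPM in Atf3 libraries and 248, 272, 268, 286 and 295 CPM in Atf4 libraries, log2 changes of 1.57 ± 0.057 (edgeR adjusted p = 6.7e-14) and 1.51 ± 0.057 (adjusted p = 3.1e-13). The clamp is loaded by replication factor C. Rfc1, its large subunit, changed least, from 71.4, 73.0, 72.3, 72.0 and 69.5 CPM to 104, 103, 108, 105 and 107 CPM in Atf3 libraries and 100.4, 103, 104, 111 and 116 CPM in Atf4 libraries, with log2 changes of 0.56 ± 0.038 (edgeR adjusted p = 1.8e-10) and 0.58 ± 0.038 (adjusted p = 3.0e-10). Its controls were tight and no induced library fell among them. Rfc2 rose by 0.64 and 0.65, Rfc3 by 1.43 and 1.44, Rfc4 by 1.12 and 1.11 and Rfc5 by 1.11 and 1.17. Parts of the exons of Rfc2, Rfc4 and Rfc5 (10.7 to 15.1%) lie under neighbouring genes.

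Replication protein A coats single-stranded DNA behind the helicase. Rpa2, the subunit phosphorylated under replication stress, went from 13.3, 12.8, 15.2, 15.4 and 14.4 CPM in controls to 45.8, 41.3, 46.1, 44.991 and 45.9 CPM in Atf3 libraries and 41.3, 42.2, 43.4, 46.9 and 46.9 CPM in Atf4 libraries. Its log2 changes were 1.65 ± 0.056 (edgeR adjusted p = 4.5e-14) and 1.63 ± 0.056 (adjusted p = 1.3e-13). Rpa3, the smallest subunit, was at 14.2, 13.9, 13.3, 14.4 and 14.4 CPM in controls, 21.3, 19.9, 20.0, 19.6 and 21.1 CPM in Atf3 libraries and 20.3, 21.4, 20.8, 19.6 and 20.7 CPM in Atf4 libraries, and changed by 0.53 ± 0.041 (edgeR adjusted p = 1.0e-09) and 0.55 ± 0.041 (adjusted p = 1.7e-09). The large subunit Rpa1 rose by 0.72 ± 0.031 and 0.88 ± 0.031. RPA was thus the step with the smallest median after origin recognition, at 0.72 and 0.88.

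The lagging strand is made in short Okazaki fragments that are trimmed and joined. The 3 genes for this rose by medians of 1.67 and 1.89. Dna2, a nuclease and helicase that removes long flaps, went from 5.83, 6.03, 7.65, 7.63 and 6.87 CPM in controls to 26.8, 24.1, 29.3, 25.4 and 27.8 CPM in Atf3 libraries and 23.9, 27.2, 27.3, 29.4 and 34.2 CPM in Atf4 libraries, log2 changes of 1.97 ± 0.094 (edgeR adjusted p = 1.7e-12) and 2.06 ± 0.094 (adjusted p = 2.7e-12). DNA ligase I, encoded by Lig1, rose by 1.67 ± 0.060 and 1.73 ± 0.060. Fen1, the flap endonuclease, was read at only 1.35, 1.32, 1.65, 2.27 and 1.63 CPM in controls, 5.05, 4.26, 4.53, 6.28 and 5.15 CPM in Atf3 libraries and 5.79, 6.11, 6.51, 5.87 and 6.36 CPM in Atf4 libraries. Its changes of 1.61 ± 0.13 (edgeR adjusted p = 2.1e-09) and 1.89 ± 0.13 (adjusted p = 4.9e-10) are uncertain, because 78.8% of its annotated exon bases also lie in Gm10143 on the opposite strand and the strand setting of the counting is not given in the sources used here.

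Genes for nucleotide supply and uracil removal rose by medians of 1.60 and 1.65, with the widest range of any step. Ung, the uracil DNA glycosylase that cuts misplaced uracil out of new DNA, rose most (GRCm38 chr5:114130386-114139323, plus strand). It was at 1.82, 2.02, 1.99, 2.48 and 1.80 CPM in controls, 27.8, 24.2, 26.8, 23.5 and 23.9 CPM in Atf3 libraries and 13.3, 16.3, 18.9, 20.4 and 23.8 CPM in Atf4 libraries. The lowest library of the induced lines was several times the highest control. The log2 changes were 3.64 ± 0.14 (edgeR adjusted p = 1.1e-13) and 3.19 ± 0.14 (adjusted p = 1.5e-12), 12.5-fold and 9.13-fold. Dut, whose dUTPase keeps uracil out of the nucleotide pool, rose by 1.38 ± 0.057 and 1.38 ± 0.057. The ratio of Ung to Dut per exon length went from 0.0397 ± 0.0056 (SD, n = 5) in controls to 0.190 ± 0.0151 and 0.138 ± 0.0192. Its size, too, rests on all annotated exons.

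Ribonucleotide reductase makes deoxynucleotides from a long-lived large subunit, Rrm1, and a small subunit, Rrm2, that is known to be made in S phase. Rrm1 changed least of this step, from 161, 154, 170.1, 178 and 172 CPM in controls to 257, 246, 258, 236 and 252 CPM in Atf3 libraries and 262, 259.6, 262, 284 and 261 CPM in Atf4 libraries, log2 changes of 0.58 ± 0.041 (edgeR adjusted p = 2.9e-10) and 0.67 ± 0.041 (adjusted p = 1.1e-10). Rrm2 rose from 39.1 ± 4.31 CPM (SD, n = 5) to 169 ± 7.34 and 159 ± 9.58 CPM, log2 changes of 2.11 ± 0.063 and 2.02 ± 0.063. Per exon length the ratio of Rrm2 to Rrm1 was 0.928 ± 0.0527 in controls, 2.68 ± 0.0778 with Atf3 and 2.38 ± 0.141 with Atf4, with no overlap between the induced lines and the controls. Its size rests on all annotated exons, used or not: 11012 bases for Rrm1 and 2771 for Rrm2. In CPM, Rrm1 stayed above Rrm2 in every line. The thymidylate enzymes moved as well: thymidine kinase, Tk1, rose by 1.82 ± 0.072 and 1.93 ± 0.072 and thymidylate synthase, Tyms, by 1.03 ± 0.044 and 1.29 ± 0.044.

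Fork protection and chromatin assembly complete the list. Timeless and Tipin form a pair that keeps polymerases and helicase together. Timeless went from 9.77, 8.83, 11.1, 11.3 and 10.5 CPM in controls to 40.4, 38.5, 40.4, 39.5 and 38.6 CPM in Atf3 libraries and 34.3, 36.7, 37.9, 41.5 and 45.4 CPM in Atf4 libraries, with log2 changes of 1.94 ± 0.073 (edgeR adjusted p = 1.0e-13) and 1.93 ± 0.073 (adjusted p = 3.1e-13). Tipin rose less, from 18.0, 17.1, 18.1, 19.6 and 18.8 CPM to 52.4, 47.6, 54.6, 49.9 and 51.7 CPM and 43.9, 46.2, 47.1, 48.4 and 53.0 CPM, by 1.48 ± 0.053 (edgeR adjusted p = 6.2e-14) and 1.38 ± 0.053 (adjusted p = 3.4e-13). Claspin, encoded by Clspn, carries the checkpoint signal at forks and rose by 1.75 ± 0.085 and 1.89 ± 0.085. Chaf1b, a subunit of the CAF-1 histone chaperone that places histones on new DNA, had the largest change outside licensing, Ung and Mcm3. It was at 6.39, 6.52, 8.61, 7.48 and 7.15 CPM in controls, 37.2, 31.0, 36.4, 33.9 and 35.3 CPM in Atf3 libraries and 27.8, 32.7, 31.9, 35.9 and 39.8 CPM in Atf4 libraries, for log2 changes of 2.27 ± 0.092 (edgeR adjusted p = 2.4e-13) and 2.22 ± 0.092 (adjusted p = 9.9e-13). Its partner Chaf1a rose by 2.10 and 2.00, with 52.5% of its annotated exon bases under Ubxn6. Slbp, which binds the stem-loop of histone mRNAs, went from 34.4, 35.8, 35.3, 37.3 and 36.0 CPM to 78.6, 74.4, 75.8, 75.0 and 78.2 CPM and 73.2, 75.0, 79.6, 76.8 and 81.1 CPM, by 1.09 ± 0.036 (edgeR adjusted p = 4.1e-14) and 1.11 ± 0.036 (adjusted p = 9.3e-14). No induced library of Slbp overlapped the controls.

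A further 46 genes with known roles in replication, none of them among the 59, were read in the same fits. In the Atf3 line 38 rose, 5 fell and 3 were not called, with a median of 0.97 on the log2 scale, where 36.8% of all tested genes rose and 36.3% fell. In the Atf4 line 37 rose, 4 fell and 5 were not called, with a median of 0.98, where 31.9% of all tested genes rose and 29.7% fell. The largest rises belonged to Ccne2, the S phase cyclin E2 (2.65 and 2.58 in the Atf3 and Atf4 lines), to Dscc1, a subunit of an alternative clamp loader (2.63 and 2.56), and to the exonuclease Exo1 (2.36 and 2.22). The same 4 genes fell in each line. Rnaseh2b, a subunit of the RNase that removes ribonucleotides from DNA, changed by -0.61 and -0.56. Rrm2b, the ribonucleotide reductase subunit known as a p53 target that serves cells outside S phase, changed by -0.53 and -0.43, opposite to Rrm2. Ddb1, an adaptor of CUL4 ubiquitin ligases that degrade Cdt1, changed by -0.31 and -0.24, and the topoisomerase Top1 by -0.17 and -0.33. Mcm9, a relative of the MCM ring used in repair, fell past the threshold in the Atf3 line only (-0.17, with 0.077 in the Atf4 line), and the difference between the lines was itself called (log2 0.24, edgeR adjusted p = 1.2e-04). Of the annotated exon bases of Mcm9, 19.2% are shared with Asf1a on the opposite strand, so part of its count is uncertain.

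Genes of G2 phase and mitosis moved much less than the replication genes. Of 16 such genes, 12 rose and 4 fell in the Atf3 line, with a median log2 change of 0.39, where 36.8% of all tested genes rose and 36.3% fell. With Atf4, 12 rose and 0 fell, with a median of 0.50, where 31.9% rose and 29.7% fell. The 4 falls are therefore a smaller share of the list than falls were of all tested genes. Taken library by library, their median lay between -0.160 and 0.176 in controls, 0.328 and 0.425 in the Atf3 line and 0.416 and 0.523 in the Atf4 line. The 4 that fell in the Atf3 line were the proliferation marker Mki67 (-0.26), the kinetochore genes Cenpe (-0.24) and Cenpf (-0.39), and the mitotic cyclin Ccnb2 (-0.29). The same 4 were the ones not called in the Atf4 line, at 0.14, 0.049, 0.004 and -0.022. All 4 were among the 7 of 16 mitotic genes called higher in the Atf4 line relative to the Atf3 line. In that comparison 19.7% of all tested genes were higher and 23.9% lower.

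**Figure D4:**
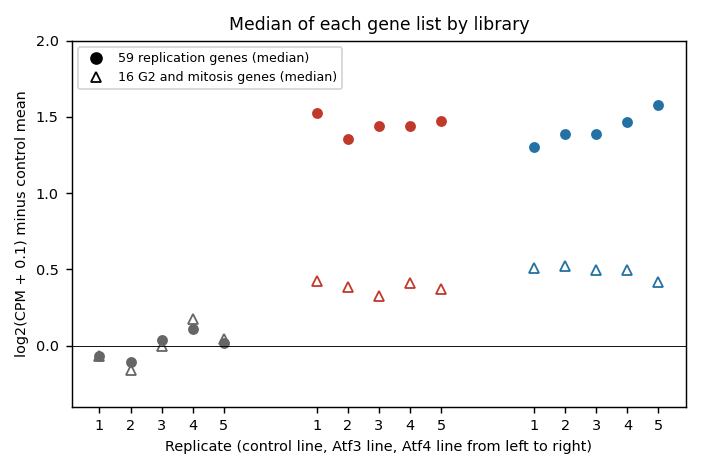
Median of log2(CPM + 0.1) minus the control mean (vertical axis) over the 59 replication genes (filled circles) and over 16 G2 and mitosis genes (triangles) in each of the 15 libraries. The replication genes lie between 1.30 and 1.58 in the 10 induced libraries and the mitotic genes between 0.328 and 0.523.

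The induced lines were compared with each other to ask where their replication programmes differ. Relative to the Atf3 line, 3 of the 59 genes were higher and 8 lower in the Atf4 line, and 48 were not called, where 19.7% of all tested genes were higher and 23.9% lower. The median difference was -0.0058 on the log2 scale. Origin genes made up 4 of the 8 lower genes: Orc2 (GRCm38 chr1:58462771-58505109), at 79.0, 72.6, 81.0, 73.3 and 76.3 CPM in the Atf3 line against 57.7, 57.4, 60.3, 61.0 and 69.0 CPM in the Atf4 line, was lower by 0.32 ± 0.047 (SE; edgeR adjusted p = 2.7e-05). Control libraries of Orc2 were at 36.9, 37.3, 37.3, 38.5 and 39.3 CPM, so both lines were above them, the Atf4 line by less. Of the annotated exon bases of Orc2, 29.8% are shared with Nif3l1, and of those of Orc1, 10.8% with Gm12743, so part of their counts is uncertain. Orc4, for which the Atf4 line stood at the control level, differed by -0.21 ± 0.044 (edgeR adjusted p = 7.2e-04), Orc5 by -0.15 ± 0.033 (adjusted p = 0.0011) and Orc1 by -0.37 ± 0.13 (adjusted p = 0.0285). Orc5 was at 33.6, 33.8, 33.3, 33.1 and 33.4 CPM in controls, 42.5, 39.4, 39.7, 38.6 and 40.8 CPM in Atf3 libraries and 35.5, 36.0, 35.4, 36.8 and 37.2 CPM in Atf4 libraries, 3 groups with no overlap. The share of all tested genes without overlap between the induced lines is not given here. The origin genes Orc3 and Orc6 were not called.

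The other lower genes belonged to different steps. Pold2, the second subunit of polymerase delta, was at 19.1, 19.4, 19.8, 19.7 and 21.1 CPM in controls, 71.3, 62.7, 71.7, 64.5 and 66.5 CPM in Atf3 libraries and 47.3, 50.2, 55.4, 56.4 and 59.4 CPM in Atf4 libraries, a difference of -0.33 ± 0.056 (edgeR adjusted p = 1.4e-04). Its partners Pold1 (-0.031) and Pold3 (0.056) were not called. Ung had the largest difference of all, -0.45 ± 0.11 (edgeR adjusted p = 0.00333), although the lines overlapped. Cdt1 was at 2.65, 2.70, 3.46, 2.79 and 2.69 CPM in controls, 33.9, 27.0, 31.8, 31.8 and 29.8 CPM in Atf3 libraries and 20.4, 22.7, 25.2, 26.4 and 32.7 CPM in Atf4 libraries, with 1 Atf4 library inside the Atf3 range, and differed by -0.28 ± 0.097 (edgeR adjusted p = 0.0268). Pole3 differed by -0.0997 ± 0.034 (adjusted p from edgeR 0.023). The calls of Orc1, Cdt1 and Pole3 each ended when single libraries were left out: Orc1 without Atf3 replicate 1 or Atf4 replicate 1, 2 or 3, Cdt1 without Atf3 replicate 1, 3 or 4 or Atf4 replicate 1, 2 or 3, and Pole3 without Atf3 replicate 1 or Atf4 replicate 1 or 4. Their edgeR adjusted p in those fits lay between 0.0506 and 0.0795. The Pole3 call was also lost with no filter on low counts (edgeR adjusted p = 0.0737), with the filter at 1 CPM (0.0662) and with the control line left out of the fit (0.0717), and the Cdt1 call with the control line left out (0.0592). On plain library totals the calls of Orc1, Orc5, Cdt1 and Pole3 were all lost.

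Of the higher genes, Tyms, which makes thymidylate, was at 20.3, 20.4, 20.0, 22.8 and 20.5 CPM in controls, 43.1, 40.2, 41.7, 42.7 and 44.1 CPM in Atf3 libraries and 50.7, 47.2, 52.1, 51.4 and 53.3 CPM in Atf4 libraries, a difference of 0.26 ± 0.043 (edgeR adjusted p = 8.7e-05). Rpa1 was at 97.6, 95.8, 98.3, 104 and 102 CPM, 169.6, 162, 161, 163 and 167 CPM and 182, 183, 185, 190.5 and 179 CPM in the same order and differed by 0.16 ± 0.031 (edgeR adjusted p = 4.9e-04). Both genes showed 3 separate groups, but so did Prim2 and the uncalled Rrm1 and Gmnn. Prim2, at 21.7, 21.1, 22.2, 24.6 and 24.2 CPM, 41.3, 40.5, 44.0, 42.0 and 42.8 CPM and 45.3, 45.1, 45.1, 46.4 and 45.9 CPM, differed by 0.11 ± 0.042 (edgeR adjusted p = 0.0354), but that call was lost on leaving out Atf3 replicate 1, 2 or 4, or Atf4 replicate 4 (adjusted p 0.0577 to 0.0895), and with no filter on low counts (0.137). The next in order were not called with TMM scaling in the fit over all lines: Fen1 (0.28 ± 0.12, edgeR adjusted p = 0.0617), Pola2 (0.0998 ± 0.042, adjusted p = 0.0647) and Rrm1 (0.088 ± 0.040, adjusted p = 0.0859). Other settings did call them higher. Fen1 passed with DESeq2 (adjusted p = 0.0403), limma-voom (0.0268), the replicate block (0.0346), the filter at 1 CPM (0.0410), the control line left out (0.0254), Atf3 replicate 4 left out (0.0164) and plain totals (0.0131). Pola2 passed with the filter at 1 CPM (edgeR adjusted p = 0.0202), on plain totals (8.1e-04) and without Atf4 replicate 1 or 3 (0.0280 and 0.0401), and Rrm1 with the filter at 1 CPM (0.0252), on plain totals (8.8e-04) and with the control line left out (0.0365). Pola2 was at 18.4, 17.8, 19.0, 19.7 and 19.0 CPM in controls, 47.5, 43.5, 47.3, 46.5 and 46.5 CPM in Atf3 libraries and 46.4, 50.2, 47.2, 50.6 and 53.4 CPM in Atf4 libraries. The split between higher and lower genes depended on scaling: on plain library totals, which move the median difference of all tested genes from 0.0070 to 0.109, 23 of the 59 genes were higher and 4 lower. The 4 lower genes under that scaling were Orc2, Orc4, Pold2 and Ung.

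**Figure D5:**
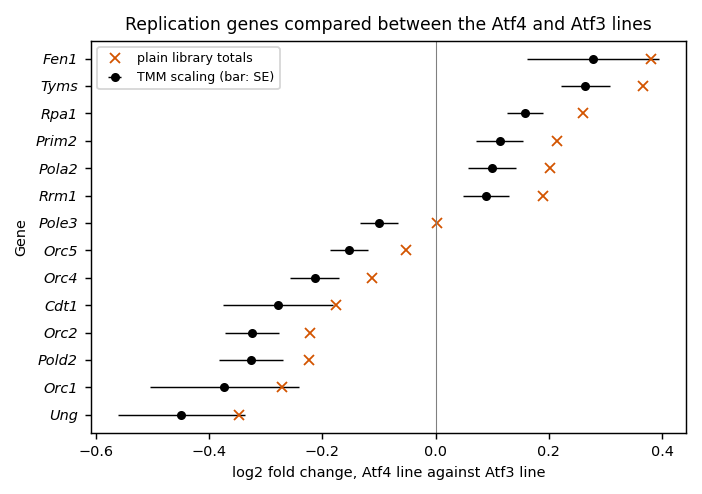
Log2 fold change of the Atf4 line against the Atf3 line for the 11 called replication genes and the 3 next higher ones, with TMM scaling (black, bars ± 1 SE) and with plain library totals (orange crosses). Plain totals shift every gene to the right by about the shift of all tested genes, and Pole3 comes to lie at 0.0021.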

How the data were processed

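Per the labels' protocols, column-purified RNA of 15 libraries was made into NEBNext Ultra libraries and read as pairs of 150 bases. The table that the authors deposited gives raw, whole-number counts for each gene. The submitters' processing notes list STAR, edgeR and the build mm10; the counter, its strand setting, the annotation release and all versions were not given in the sources used here. Symbols and merged exon lengths came from GENCODE M21 on GRCm38, and 3281 identifiers without a symbol held at most 0.208% of a library's counts. Every pair of libraries of 1 line differed by more than counting noise (chi-square 5.47 to 53.4 per degree of freedom), so none was treated as a library deposited more than once.

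The analysis used edgeR 4.0.16 in R 4.3.3: TMM, filterByExpr, 1 fit over all libraries with a coefficient per line, quasi-likelihood tests, and Benjamini-Hochberg adjustment over all 18244 genes tested, called under 0.05. CPM divides by TMM-scaled totals, with norm factors of 0.939 to 0.954 in the Atf3 line, 1.01 to 1.02 in the Atf4 line and 1.03 to 1.05 in controls. The SE is the log2 change over the square root of the F statistic. Levels per length are CPM per kilobase of merged exon, and 15 of the 59 genes share at least 5% of their exon bases with another gene. Per-library values were printed for the genes with the largest and smallest Atf3 change of each step, for uncalled genes, and for the 6 smallest adjusted p per direction between the induced lines; other genes named were chosen for their role. Members, steps and lists were chosen with earlier results of these data known. Alternatives were RLE and plain scaling, DESeq2 1.42.0, limma-voom (limma 3.58.1), other filters, each pair of lines alone, a replicate block and leaving out libraries. Scripts were tested on simulated data. Of the 59 RefSeq promoter windows, 52 could be matched to a GENCODE transcript, running 5′ to 3′ on the gene's strand, and 0 matched in reverse. The direction of the others, which include the windows printed for Mcm6 and Mcm5, could not be checked in this way.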

Additional observations from a re-analysis of the deposited data

Results flagged for a closer look

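For each of the 59 genes in each line, a library was noted when its gap to the nearest other library was over 0.71 of the line's whole range. This held for 11 of 177 sets of 5 libraries (6.21%), and chance alone gives about 1 in 20. In controls, replicate 4 was alone at the top for Cdc45 (8.61 CPM), Tyms (22.8 CPM) and Clspn (17.4 CPM), replicate 3 for Cdt1 (3.46 CPM) and Wdhd1 (8.60 CPM), and replicate 5 for Pole3 (44.6 CPM), and replicate 2 was alone at the bottom for Gmnn (8.15 CPM). In the Atf3 line, replicate 2 was alone at the bottom for Pola2 (43.5 CPM) and Rpa2 (41.3 CPM), and replicate 1 at the top for Tk1 (65.3 CPM). In the Atf4 line, replicate 4 was alone at the top for Rrm1 (284 CPM), where the other 4 libraries lay between 260 and 262 CPM. None of these libraries overlapped the libraries of another line in the comparisons with the control line.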

How the results depend on the processing

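Against the control line, the counts of rising replication genes stayed at 57 to 58 (Atf3 line) and 56 to 57 (Atf4 line) under every alternative and with any single library left out. In the Atf3 line 1 gene, Orc3, was called lower on plain totals and 1, again Orc3, with the filter at 1 CPM. Without any filter the uncalled Atf4 changes of Orc3 and Orc4 turned to 0.0065 and 0.0025. Plain totals moved the all-gene medians to -0.155 (Atf3 line) and -0.037 (Atf4 line). Between the induced lines, 3 genes were higher and 8 lower, but 23 higher and 4 lower on plain totals, where Pole3 turned to 0.0021, 6 higher with the filter at 1 CPM, and 6 higher with the control line left out of the fit. Leaving out 1 library gave 2 to 4 higher and 5 to 12 lower genes, with 5 lower without Atf3 replicate 1 or Atf4 replicate 1 and 12 without Atf4 replicate 5. Among the genes named for the comparison of the induced lines, lost or gained calls (Orc1, Orc5, Cdt1, Pole3, Prim2, Fen1, Pola2 and Rrm1) are given beside their values, and the cause was not tested. Leaving out control replicates 4 and 5 was added after seeing the data. Same-numbered libraries did not deviate together (correlations of -0.079 to 0.098, and 2 of 15 libraries closest to their own number), so numbers do not pair them. With the replicate block 58 genes rose in the Atf3 line, 57 in the Atf4 line, and 4 were higher and 10 lower between the induced lines, with 13132, 10968 and 7589 genes called in all. The genes read lowest in controls, Cdc6, Fen1, Orc1 and Ung, had means of 1.61, 1.65, 1.80 and 2.02 CPM there, and the SE of their log2 changes was 0.13 to 0.14.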

Other observations

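Regulators of S phase entry are not part of the replication machinery, and a list of 28 of them was written after the results above were known. In the Atf3 line 20 rose and 7 fell, and in the Atf4 line 19 rose and 6 fell, with medians of 0.59 and 0.43 on the log2 scale. Over all tested genes the shares that rose and fell were 36.8% and 36.3% in the Atf3 line and 31.9% and 29.7% in the Atf4 line, so the falls on this list, 7 and 6 of 28, were not above the background. The largest rises were those of Ccnd2 and Ccnd1, which encode D-type cyclins that start the cycle with Cdk4 and Cdk6. Ccnd2 went from 28.3 ± 2.09 CPM (SD, n = 5) in controls to 367 ± 50.5 CPM in Atf3 libraries and 192 ± 62.5 CPM in Atf4 libraries. Ccnd1, which shares 23.4% of its annotated exon bases with LTO1, went from 107 ± 20.5 CPM to 960.5 ± 113 CPM and 559.9 ± 182 CPM. Relative to the Atf3 line both were lower in the Atf4 line, by 0.93 ± 0.15 (SE; edgeR adjusted p = 9.6e-05) and 0.78 ± 0.17 (adjusted p = 0.00121). Of the E2F genes, the activators E2f1 (log2 change 1.97 and 1.92 in the Atf3 and Atf4 lines) and E2f2 (1.87 and 1.87) rose most, followed by the repressors E2f7 (1.49 and 1.70) and E2f8 (1.13 and 1.18). The pocket protein genes went different ways: Rbl1, itself an S phase gene, rose by 1.42 and 1.52, while Rb1 changed by -0.30 and -0.27 and Rbl2, linked to quiescence, by -0.58 and -0.46. Among inhibitors of cyclin-dependent kinases, Cdkn1a rose by 0.98 and 0.98, and Cdkn1b and Cdkn1c fell in each line (Cdkn1c by 2.06 ± 0.12 and 1.54 ± 0.12). Cdk6 also fell in each line, by 0.97 ± 0.092 and 1.08 ± 0.092. Myc separated the lines: it was at 38.5 to 95.7 CPM in controls, 116 to 169.9 CPM in Atf3 libraries and 39.8 to 79.0 CPM in Atf4 libraries, a difference between the induced lines of -1.33 ± 0.20 (edgeR adjusted p = 3.5e-05).

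In the Atf4 line, the library with the lowest Atf4 level (replicate 1, 128 CPM) had the lowest median of the 59 replication genes (1.30) and the one with the highest (replicate 5, 188 CPM) had the highest median (1.58). Replicates 2, 3 and 4 lay between, at 147, 150 and 154 CPM of Atf4 and medians of 1.39, 1.39 and 1.47. The Atf3 line showed no such order: its replicate 2 had the highest Atf3 level (2107 CPM) and the lowest median (1.36), and its replicate 3 had the lowest Atf3 level (1772 CPM) with a median of 1.44. Atf4 itself was at 227 to 267 CPM in the Atf3 line, above every library of the Atf4 line, at medians of 1.36 to 1.52. Replicates 1 and 5 of the Atf4 line also differed most of all pairs within a line over the whole transcriptome (chi-square 53.4 per degree of freedom). On the first principal component of the 15 libraries, Atf4 replicates 1 to 5 lay at 1.11, 7.17, 11.3, 14.3 and 27.1, with every Atf3 library above them. The order in the Atf4 line is thus not shown to be particular to the replication genes or to Atf4, and its cause was not tested. No correlation is given over 5 libraries.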
